A study of Mus musculus with 4 samples.

Results

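The major histocompatibility complex genes of the mouse, called H2, and the genes that prepare peptides for their products were followed in luminal epithelium and stroma of the uterus. Members were every gene whose symbol begins with H2- and a capital letter, other than H2-Ke2 and H2-Ke6, together with 14 genes given by name: B2m, Tap1, Tap2, Tapbp, Tapbpl, Psmb8, Psmb9, Psmb10, Psme1, Psme2, Nlrc5, Erap1, Cd74 and Ciita. Rows joining symbols by a comma were left out. These were 52 of the 23235 genes in each table, made up of 28 class I chains, 12 genes of class I antigen processing and 12 class II genes, of which 10 were chains. Of the 52, 29 reached 1 RPKM (reads on a transcript, scaled by its length and by the reads mapped in the library) in at least 1 library and are named below, 14 stayed above 0 but under 1 RPKM everywhere, and 9 were listed at 0 in every library.

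Class I molecules sit on nearly all nucleated cells and show peptides from proteins made inside the cell to cytotoxic T cells and natural killer cells. The peptides are cut by the proteasome, carried into the endoplasmic reticulum by the transporter TAP, trimmed, and loaded onto a class I heavy chain paired with beta2-microglobulin. Class II molecules are carried mainly by dendritic cells, macrophages and B cells and show peptides taken up from outside. Interferons raise both pathways, through the regulators NLRC5 for class I and CIITA for class II.

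Cells were cut by laser capture microdissection from uteri at day 4 of pseudopregnancy, a hormonal state without embryos brought on by mating to a vasectomized male. There were 4 groups of 1 library: luminal epithelium labelled knockout (Msx1 d/d, Msx2 d/d), luminal epithelium of the floxed control (Msx1 f/f, Msx2 f/f), stroma labelled knockout and stroma of the floxed control. The series text gives 1 mouse of each genotype and calls the deletion uterine-specific. The sources used here name neither the driver of the deletion nor the age, strain background or H2 haplotype of the mice. Animal and genotype cannot be told apart, no value has a replicate and no test across samples was possible, so higher and lower describe these libraries only.

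Estimated depth was 91.1 M reads in epithelium labelled knockout against 6.35 M in control epithelium, and 61.4 M in stroma labelled knockout against 42.7 M in control stroma. A single read on 1 kb was thus worth 0.0110 RPKM in epithelium labelled knockout and 0.157 RPKM in control epithelium. Msx1 was at 13.6 RPKM in epithelium labelled knockout against 23.2 RPKM in control epithelium, and Msx2, at 2.06 in labelled knockout against 1.31 RPKM in control epithelium (limits of the ratio 0.984 and 2.61), went against the label, so these libraries are called labelled knockout throughout. In stroma both were under 0.2 RPKM. A value of 0 is not taken for absence, because both controls list 0 for Rpl26, which encodes part of the ribosome and was picked with its values in view. The 8 epithelial markers summed to 485 in labelled knockout against 424 RPKM in control epithelium, and to 0.519 in labelled knockout against 1.76 RPKM in control stroma. The 8 stromal markers summed to 5.27 in labelled knockout against 12.4 RPKM in control epithelium, and to 532 in labelled knockout against 369 RPKM in control stroma. In captured tissue, fewer cells of a type and less RNA per cell cannot be told apart.

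The classical class I chains and their partner were lower in both compartments labelled knockout. H2-K1 (chr17:34132957-34137278, mm9), one of the pair of classical chains in this table, was at 22.9 RPKM in epithelium labelled knockout against 96.5 RPKM in control epithelium, and at 13.7 RPKM in stroma labelled knockout against 49.7 RPKM in control stroma. The ratio, labelled knockout over control, was 0.237 in epithelium (limits of 0.220 and 0.256) and 0.276 in stroma (0.258 and 0.296), where limits are 95% exact binomial bounds on estimated reads and cover counting error only. H2-D1 (chr17:35400039-35462354), the other classical chain, was at 14.8 in labelled knockout against 47.4 RPKM in control epithelium and at 11.4 in labelled knockout against 29.9 RPKM in control stroma. The H2-D1 ratio was 0.312 (0.285 and 0.342) in epithelium and 0.382 (0.357 and 0.408) in stroma. Both chains were highest in control epithelium and lowest in stroma labelled knockout, and for both the labelled knockout library lay below the control library of either compartment.

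B2m (chr2:121945844-122011925), which encodes beta2-microglobulin, the light chain of every classical class I molecule, was the most abundant member. It was at 84.7 RPKM in epithelium labelled knockout against 289 RPKM in control epithelium, and at 48.5 in labelled knockout against 139 RPKM in control stroma. The B2m ratio was 0.293 (0.276 and 0.313) in epithelium and 0.350 (0.331 and 0.370) in stroma. Heavy and light chain thus differed by similar factors: within a library, H2-K1 and H2-D1 together were 0.444 times B2m in epithelium labelled knockout against 0.499 in control epithelium, and 0.519 in labelled knockout against 0.575 in control stroma. The 28 class I chains summed to 49.1 in labelled knockout against 189 RPKM in control epithelium and to 39.1 in labelled knockout against 116 RPKM in control stroma. H2-K1 and H2-D1 made up 76.7% in labelled knockout against 76.2% of that sum in control epithelium and 64.4% in labelled knockout against 68.8% in control stroma.

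**Figure D1:**
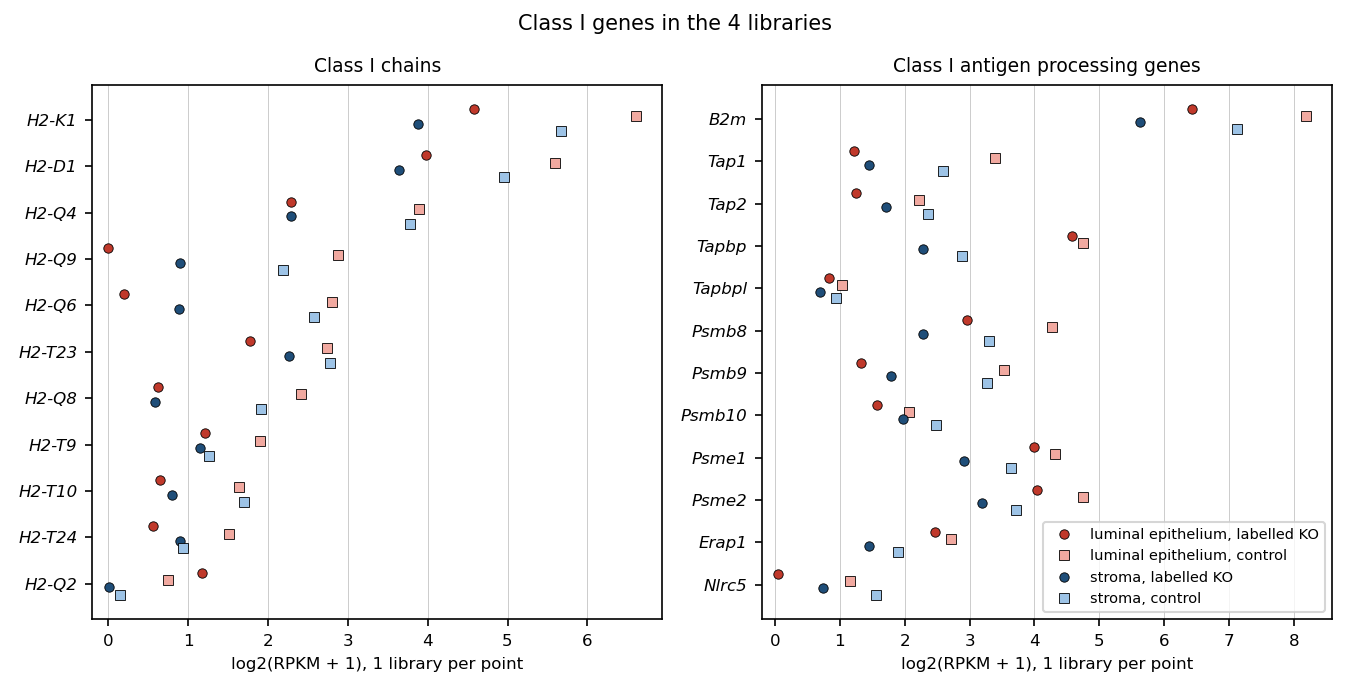
Levels of the class I chains that reached 1 RPKM and of the 12 class I antigen processing genes, as log2(RPKM + 1) on the horizontal axis, 1 point per library; red is epithelium, blue stroma, dark circles labelled knockout and pale squares control. For H2-K1, H2-D1 and B2m the labelled knockout point lies left of its control in both colours, while H2-Q2 is the chain whose epithelial point lies right of its control.

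The stretches before the start sites of 4 members are shown: H2-K1, H2-Q6 and B2m, because they were lower in both compartments labelled knockout, and H2-Q2, a Q chain that was not lower in epithelium and whose ratio there had limits that hold 1. Sequences and start sites are those of RefSeq on GRCm38.p6, 5′ to 3′ on the strand of the gene, within the 250 bases before the start, without annotated exon bases. Capitals mark matches on either strand to 3 motifs: the NF-kappaB site of the class I enhancer A (GGGGA and TCCC with 1 base of any kind between them), the interferon response sequence of class I genes (AAGTGAAAC) and the core of an interferon-stimulated response element (GAAA and GAAA with 2 bases of any kind between them). The stretches lie at chr17:34000348-34000597 (minus strand), chr17:35424600-35424849 (plus), chr17:35342057-35342241 (plus) and chr2:122147437-122147685 (plus).
H2-K1: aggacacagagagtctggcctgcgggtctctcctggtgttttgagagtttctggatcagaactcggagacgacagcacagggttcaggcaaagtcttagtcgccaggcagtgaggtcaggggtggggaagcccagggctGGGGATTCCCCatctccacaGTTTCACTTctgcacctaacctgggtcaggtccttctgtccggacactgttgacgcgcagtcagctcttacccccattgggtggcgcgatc
H2-Q6: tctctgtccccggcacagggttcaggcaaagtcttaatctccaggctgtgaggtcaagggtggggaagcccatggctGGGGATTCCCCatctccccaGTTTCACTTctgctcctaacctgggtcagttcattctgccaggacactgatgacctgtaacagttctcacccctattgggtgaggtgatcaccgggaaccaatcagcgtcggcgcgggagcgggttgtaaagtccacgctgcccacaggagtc
H2-Q2: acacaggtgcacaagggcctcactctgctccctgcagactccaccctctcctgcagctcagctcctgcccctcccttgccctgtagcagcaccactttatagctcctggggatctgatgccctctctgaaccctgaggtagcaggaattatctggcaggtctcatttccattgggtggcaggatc
B2m: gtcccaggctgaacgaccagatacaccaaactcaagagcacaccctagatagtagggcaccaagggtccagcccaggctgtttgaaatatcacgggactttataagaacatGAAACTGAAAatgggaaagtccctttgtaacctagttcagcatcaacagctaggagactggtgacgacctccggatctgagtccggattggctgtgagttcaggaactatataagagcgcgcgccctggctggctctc
In H2-K1 and H2-Q6 overlapping NF-kappaB matches on both strands were followed closely by an AAGTGAAAC match on the opposite strand. The H2-Q2 stretch held none of the 3 motifs, and the B2m stretch held the response element core. Of 27025 RefSeq genes, 0.281% had the first motif in the 250 bases before their first listed start, 0.352% the second and 3.04% the third. Of the 37 members matched by symbol, 3 had the first (H2-K1, H2-D1 and H2-Q6), 7 the second (H2-K1, H2-D1, H2-Q4, H2-Q6, H2-Q10, H2-M3 and H2-T3) and 2 the third (B2m and H2-T23). The gamma-activated site TTCNNNGAA was before 4 of the 37, Psmb8 among them, against 7.18% of all genes, and the CCAAT box before 28 of the 37, against 34.5% of all genes. Motifs were chosen as textbook elements of these promoters with the sequences in view, a match is a description of letters, and many H2 promoters are copies of one another.

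Of the non-classical class I chains of the Q region, H2-Q4, H2-Q6, H2-Q8 and H2-Q9 were lower in both compartments labelled knockout. Each was above 1 RPKM in control epithelium, a choice that favours chains high in that library. H2-Q1 and H2-Q2, under 1 RPKM in control epithelium, were not lower in epithelium labelled knockout. H2-Q4 (chr17:35516562-35521619), a widely expressed Q chain, was at 3.90 in labelled knockout against 13.9 RPKM in control epithelium and at 3.91 in labelled knockout against 12.7 RPKM in control stroma. The H2-Q4 ratio was 0.281 (0.232 and 0.339) in epithelium and 0.308 (0.272 and 0.348) in stroma. H2-Q6 (chr17:35561822-35565306), one of the near-identical genes that encode the Qa-2 antigen, was at 0.150 RPKM in epithelium labelled knockout against 6.0 RPKM in control epithelium, and at 0.841 in labelled knockout against 4.95 RPKM in control stroma. Its ratio was 0.0250 in epithelium (0.0116 and 0.0525) and 0.170 in stroma (0.116 and 0.240), and the difference between compartments was not tested. H2-Q8 was at 0.545 in labelled knockout against 4.31 RPKM in control epithelium and at 0.498 in labelled knockout against 2.77 RPKM in control stroma. H2-Q9, a further Qa-2 gene, was listed at 0 in labelled knockout against 6.36 RPKM in control epithelium and at 0.865 in labelled knockout against 3.56 RPKM in control stroma, and the authors' deposited table marks it LOWDATA in both compartments, so no ratio is given for epithelium.

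H2-Q2 (chr17:35479278-35482667) was at 1.25 RPKM in epithelium labelled knockout against 0.676 RPKM in control epithelium. The control value rests on about 5 estimated reads, and the ratio of 1.85 had limits of 0.704 and 5.29, which hold 1. In stroma it was at 0.00704 in labelled knockout against 0.110 RPKM in control. Its neighbour H2-Q1, which stayed under 1 RPKM, was chosen after its values were seen. H2-Q1 was at 0.640 in labelled knockout against 0.444 RPKM in control epithelium and at 0.0473 in labelled knockout against 0.112 RPKM in control stroma. The H2-Q1 ratio was 1.44 (0.614 and 4.65) in epithelium, on about 5 estimated reads in control, and 0.423 (0.102 and 1.29) in stroma. These limits hold 1 in both compartments. H2-Q1 and H2-Q2 were thus higher in either epithelial library than in either stromal library, across tables that were normalized separately.

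Chains of the T region spanned a wide range of ratios. H2-T23, which encodes Qa-1, the ligand that presents class I leader peptides to NKG2A receptors, was at 2.42 in labelled knockout against 5.67 RPKM in control epithelium and at 3.79 in labelled knockout against 5.87 RPKM in control stroma. The H2-T23 ratio was 0.426 (0.310 and 0.593) in epithelium and 0.646 (0.550 and 0.759) in stroma. H2-T10, whose product is recognised by gamma-delta T cells, was at 0.561 in labelled knockout against 2.10 RPKM in control epithelium and at 0.738 in labelled knockout against 2.26 RPKM in control stroma. The H2-T10 ratio was 0.267 (0.188 and 0.379) in epithelium and 0.327 (0.266 and 0.399) in stroma. H2-T24 was at 0.470 in labelled knockout against 1.84 RPKM in control epithelium, a ratio of 0.255 (0.161 and 0.428), but at 0.863 in labelled knockout against 0.910 RPKM in control stroma, where the limits of 0.701 and 1.29 hold 1. H2-T9 was at 1.31 in labelled knockout against 2.74 RPKM in control epithelium and at 1.22 in labelled knockout against 1.40 RPKM in control stroma. The row joining H2-T22 and H2-T9 has the same locus. It was at 0.396 in labelled knockout against 5.73 RPKM in control epithelium, and at 1.76 in labelled knockout against 5.69 RPKM in control stroma. How reads were divided between these rows was not tested. The remaining 17 class I chains, among them every chain of the M region, stayed under 1 RPKM in every library, and 8 of them, all M chains, were listed at 0 throughout.

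Reads of class I chains can be shared among copies. Of all 50-base windows of a member's transcripts in GENCODE vM21, another gene's transcripts held 8.79% for H2-K1, 14.3% for H2-D1, 24.3% for H2-Q4, 36.8% for H2-Q6, 34.9% for H2-Q9, 31.6% for H2-T10 and 28.8% for H2-T23. H2-Q6 shared most with H2-Q7, and H2-T10 with H2-T22. For H2-Q1 the share was 22.9%, most of it with H2-Q2 (13.9%), so the values of this pair are not independent. For B2m, Nlrc5, Psmb8, Psmb9, Psmb10, Erap1, Cd74, H2-Aa, H2-Ab1, H2-Eb1 and H2-DMa the share was 0, and for Tap1 and Tap2 it was 0.847% and 0.737%. Values of single Q and T chains are therefore uncertain, and their counting limits are too narrow where reads were split, while the genes with a share of 0 rest on reads of their own. In the deposited tables H2-D1 also shares a locus with H2-Q1, and B2m with Trim69 and Patl2. H2-T23 shares one with H2-T24. H2-T9 shares one with the row joining H2-T22 and H2-T9, and H2-Q9 with the row joining H2-Q7 and H2-Q9.

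Among genes that supply peptide, both transporter subunits had lower ratios than the loading and trimming factors in epithelium. The limits of Tap2 overlapped those of Tapbpl there. In stroma Tap1 stood apart, while the limits of Tap2 overlapped those of Tapbp, Tapbpl and Erap1. Tap1 (chr17:34324501-34334170), a subunit of the peptide transporter, was at 1.32 RPKM in epithelium labelled knockout against 9.45 RPKM in control epithelium, and at 1.72 in labelled knockout against 5.06 RPKM in control stroma. The Tap1 ratio was 0.140 (0.115 and 0.171) in epithelium and 0.340 (0.294 and 0.394) in stroma. Tap2, the other subunit, was at 1.38 in labelled knockout against 3.68 RPKM in control epithelium and at 2.27 in labelled knockout against 4.13 RPKM in control stroma. The Tap2 ratio was 0.375 (0.292 and 0.485) in epithelium and 0.551 (0.485 and 0.624) in stroma. Tap1 was therefore lower relative to Tap2, with a ratio of Tap1 to Tap2 of 0.957 in epithelium labelled knockout against 2.57 in control epithelium, and of 0.758 in labelled knockout against 1.23 in control stroma. Tapbp, which encodes tapasin, the bridge between transporter and heavy chain, differed little in epithelium, at 22.9 in labelled knockout against 25.9 RPKM in control (ratio 0.884, limits 0.801 and 0.980), and was at 3.85 in labelled knockout against 6.35 RPKM in control stroma (0.606, limits 0.542 and 0.676). Tapbpl, a tapasin relative, was at 0.783 in labelled knockout against 1.05 RPKM in control epithelium (0.743, limits 0.441 and 1.43). In stroma it was at 0.611 in labelled knockout against 0.924 RPKM in control (0.662, limits 0.483 and 0.910). Erap1, the aminopeptidase that trims peptides, was at 4.53 in labelled knockout against 5.60 RPKM in control epithelium (0.810, limits 0.698 and 0.941) and at 1.75 in labelled knockout against 2.72 RPKM in control stroma (0.643, limits 0.573 and 0.720).

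The immunoproteasome replaces the catalytic subunits of the standard proteasome with interferon-inducible ones. Psmb9 (chr17:34319044-34324275), which takes the place of Psmb6 and lies beside Tap1, was at 1.51 in labelled knockout against 10.5 RPKM in control epithelium and at 2.48 in labelled knockout against 8.61 RPKM in control stroma. The Psmb9 ratio was 0.144 (0.109 and 0.192) in epithelium and 0.288 (0.240 and 0.344) in stroma. Psmb8, which takes the place of Psmb5, was at 6.82 in labelled knockout against 18.3 RPKM in control epithelium and at 3.84 in labelled knockout against 8.87 RPKM in control stroma. The Psmb8 ratio was 0.373 (0.315 and 0.443) in epithelium and 0.433 (0.377 and 0.497) in stroma. Psmb10, which takes the place of Psmb7, was at 1.97 in labelled knockout against 3.18 RPKM in control epithelium and at 2.94 in labelled knockout against 4.62 RPKM in control stroma. Its ratio of 0.636 in stroma had limits of 0.522 and 0.774, while that of 0.621 in epithelium had limits of 0.405 and 1.03, which hold 1.

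The standard subunits they replace were within 2-fold in both compartments. Psmb5 was at 20.3 in labelled knockout against 16.7 RPKM in control epithelium and at 7.27 in labelled knockout against 7.36 RPKM in control stroma. Psmb6 was at 15.2 in labelled knockout against 11.1 RPKM in control epithelium and at 8.54 in labelled knockout against 6.80 RPKM in control stroma. Psmb7 was at 13.9 in labelled knockout against 14.0 RPKM in control epithelium and at 9.03 in labelled knockout against 9.01 RPKM in control stroma. A ratio within a library is free of the scaling between libraries. Psmb9 over Psmb6 was 0.0997 in epithelium labelled knockout against 0.949 in control epithelium, and 0.290 in labelled knockout against 1.27 in control stroma. Psmb8 over Psmb5 was 0.336 in labelled knockout against 1.10 in control epithelium and 0.529 in labelled knockout against 1.21 in control stroma, and Psmb10 over Psmb7 was 0.141 in labelled knockout against 0.227 in control epithelium and 0.325 in labelled knockout against 0.512 in control stroma. All 3 ratios were lower in the labelled knockout library of each compartment. Psme1 and Psme2, subunits of the interferon-inducible PA28 cap of the proteasome, were at 14.8 in labelled knockout against 18.9 RPKM in control and 15.4 in labelled knockout against 25.8 RPKM in control epithelium, and at 6.5 in labelled knockout against 11.5 RPKM in control and 8.10 in labelled knockout against 12.2 RPKM in control stroma, all with limits of the ratio below 1. For Psme2, 55.6% of windows are shared with Psme2b.

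**Figure D2:**
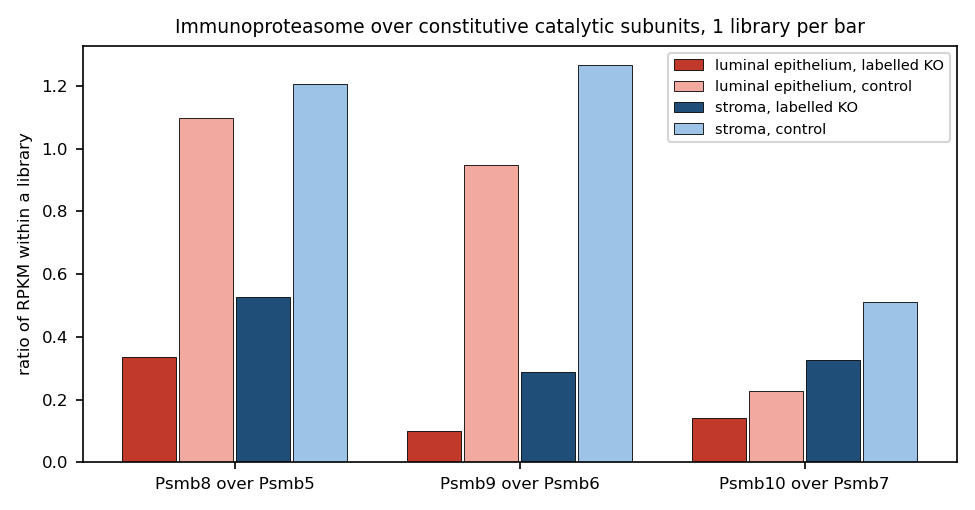
Ratio of the RPKM of each immunoproteasome subunit to that of the standard subunit it replaces, 1 library per bar, with labelled knockout in dark and control in pale colours and no error bars because there are no replicates. The bars for labelled knockout are shorter than those of their controls for all 3 pairs, down to 0.0997 for Psmb9 over Psmb6 in epithelium.

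Nlrc5 (chr8:96996663-97051172), the transactivator of class I genes, was at 0.0353 RPKM in epithelium labelled knockout against 1.23 RPKM in control epithelium, and at 0.670 in labelled knockout against 1.94 RPKM in control stroma. The ratio was 0.0286 in epithelium (0.0168 and 0.0484) on about 22 and 53 estimated reads, and 0.346 in stroma (0.299 and 0.401). Of the 12 class I processing genes it was the lowest in epithelium labelled knockout, while in the other libraries Tapbpl was lower.

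Class II genes were lower as well, and in tables normalized apart they stood at lower levels in epithelium than in stroma. H2-Aa (chr17:34419696-34424716), the alpha chain of the I-A molecule, was at 0.128 RPKM in epithelium labelled knockout against 2.86 RPKM in control epithelium, and at 11.0 in labelled knockout against 28.6 RPKM in control stroma. The H2-Aa ratio was 0.0449 (0.0191 and 0.102) in epithelium and 0.384 (0.348 and 0.424) in stroma. H2-Ab1, its beta chain, was at 0.173 in labelled knockout against 2.70 RPKM in control epithelium and at 7.57 in labelled knockout against 22.9 RPKM in control stroma. The H2-Ab1 ratio was 0.0642 (0.0310 and 0.138) in epithelium and 0.331 (0.296 and 0.370) in stroma. H2-Eb1, the beta chain of I-E, was at 0.171 in labelled knockout against 1.38 RPKM in control epithelium and at 5.08 in labelled knockout against 13.3 RPKM in control stroma. The H2-Eb1 ratio was 0.124 (0.0599 and 0.265) in epithelium and 0.382 (0.340 and 0.429) in stroma. The epithelial values of these chains rest on 11 to 23 estimated reads in the labelled knockout library and 13 to 17 in the control.

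Cd74, the invariant chain that holds class II molecules until they reach endosomes, was at 0.960 in labelled knockout against 6.36 RPKM in control epithelium and at 19.8 in labelled knockout against 52.1 RPKM in control stroma. The Cd74 ratio was 0.151 (0.106 and 0.221) in epithelium and 0.380 (0.356 and 0.406) in stroma. H2-DMa and H2-DMb1, subunits of the DM molecule that exchanges the invariant chain peptide for antigen, were at 1.01 in labelled knockout against 3.06 RPKM in control stroma and at 0.714 in labelled knockout against 1.73 RPKM in control stroma, ratios of 0.330 (0.254 and 0.426) and 0.414 (0.289 and 0.589). In epithelium both were low, H2-DMa at 0.213 in labelled knockout against 0.248 RPKM in control epithelium and H2-DMb1 at 0.505 in labelled knockout against 0.497 RPKM in control epithelium. The control values rest on about 2 and 4 estimated reads. The limits of the ratio, 0.246 and 8.46 for H2-DMa and 0.354 and 3.64 for H2-DMb1, hold 1 and are too wide to give a direction. H2-DMb1 lay above 0 on the log2 scale there as deposited and below 0 under both rescalings tried, and 27.2% of its windows are shared with H2-DMb2. Ciita, the class II transactivator, stayed under 1 RPKM and was chosen after its values were seen, at 0.0249 in labelled knockout against 0.0852 RPKM in control epithelium and at 0.320 in labelled knockout against 0.766 RPKM in control stroma, where the limits of the ratio were 0.318 and 0.548. H2-Ea-ps, a pseudogene in this annotation, was listed at 0 in all 4 libraries, and H2-Oa, H2-Ob, H2-Eb2 and H2-DMb2 stayed under 1 RPKM.

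Leukocyte markers were lower in stroma and mixed in epithelium, where most were under 1 RPKM. The 24 markers fixed for leukocytes summed to 12.3 RPKM in epithelium labelled knockout against 21.2 RPKM in control epithelium, and to 63.9 in labelled knockout against 126 RPKM in control stroma. In stroma all 17 markers whose pair averaged 1 RPKM or more lay below 0, with a median log2 difference of -0.64 and 1 at least 2-fold lower (against 1.59% of all genes). Among them the macrophage lysozyme Lyz2 was at 21.5 in labelled knockout against 45.1 RPKM in control, and the complement genes C1qb and C1qc at 3.20 in labelled knockout against 6.82 RPKM in control and 3.36 in labelled knockout against 7.32 RPKM in control. In epithelium 15 of the 24 lay below 0, 7 above and 2 at 0, with a median over all 24 of -0.16. There 3 reached that mean: Lyz2 at 0.705 in labelled knockout against 7.50 RPKM in control, Laptm5, a lysosomal protein of blood cells, at 0.150 in labelled knockout against 2.02 RPKM in control, and Cd52, a small glycoprotein that is also made by epithelium of the male reproductive tract, at 9.01 in labelled knockout against 3.80 RPKM in control. Of the 7 above 0 in epithelium, Cd3e, Cd79a and Flt3 had 0 estimated reads in control epithelium, and Tyrobp and Cd53 had 1. Cd68 had no read estimate, and Cd52 rested on about 8. Itgam and Cd48, which lay below 0, also had 1. Without Cd52, left out after its values were seen, the sums were 3.26 in labelled knockout against 17.4 RPKM in control epithelium and 58.0 in labelled knockout against 115 RPKM in control stroma. The sum of H2-Aa, H2-Ab1, H2-Eb1 and Cd74 was 0.117 times the sum of all 24 markers in epithelium labelled knockout against 0.628 in control epithelium, and 0.680 in labelled knockout against 0.927 in control stroma. Without Cd52 it was 0.439 in labelled knockout against 0.765 in control epithelium, and 0.749 in labelled knockout against 1.01 in control stroma. Of the defining markers, Ptprc, the pan-leukocyte phosphatase, was at 0.0379 in labelled knockout against 0.329 RPKM in control epithelium and at 1.94 in labelled knockout against 3.58 RPKM in control stroma, and 4 of 24 markers were listed at 0 in epithelium labelled knockout against 5 in control epithelium. The part of leukocytes in the class II difference was not tested.

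Class I levels were set beside the same markers. H2-K1 was 1.86 times the summed leukocyte markers in epithelium labelled knockout against 4.56 times in control epithelium, and 0.215 in labelled knockout against 0.394 times in control stroma. Without Cd52 the direction in epithelium turned, at 7.01 times in labelled knockout against 5.56 times in control epithelium, while in stroma it was 0.237 in labelled knockout against 0.431 times in control stroma. Stromal markers were also lower in epithelium labelled knockout, with all 4 that reached a mean of 1 RPKM below 0, and their sum was 0.990% of that in stroma for the labelled knockout libraries and 3.37% for the controls. The 8 endothelial markers summed to 0.832 in labelled knockout against 0.562 RPKM in control epithelium and to 47.7 in labelled knockout against 51.6 RPKM in control stroma. The part of these cells in the class I difference was not tested.

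**Figure D3:**
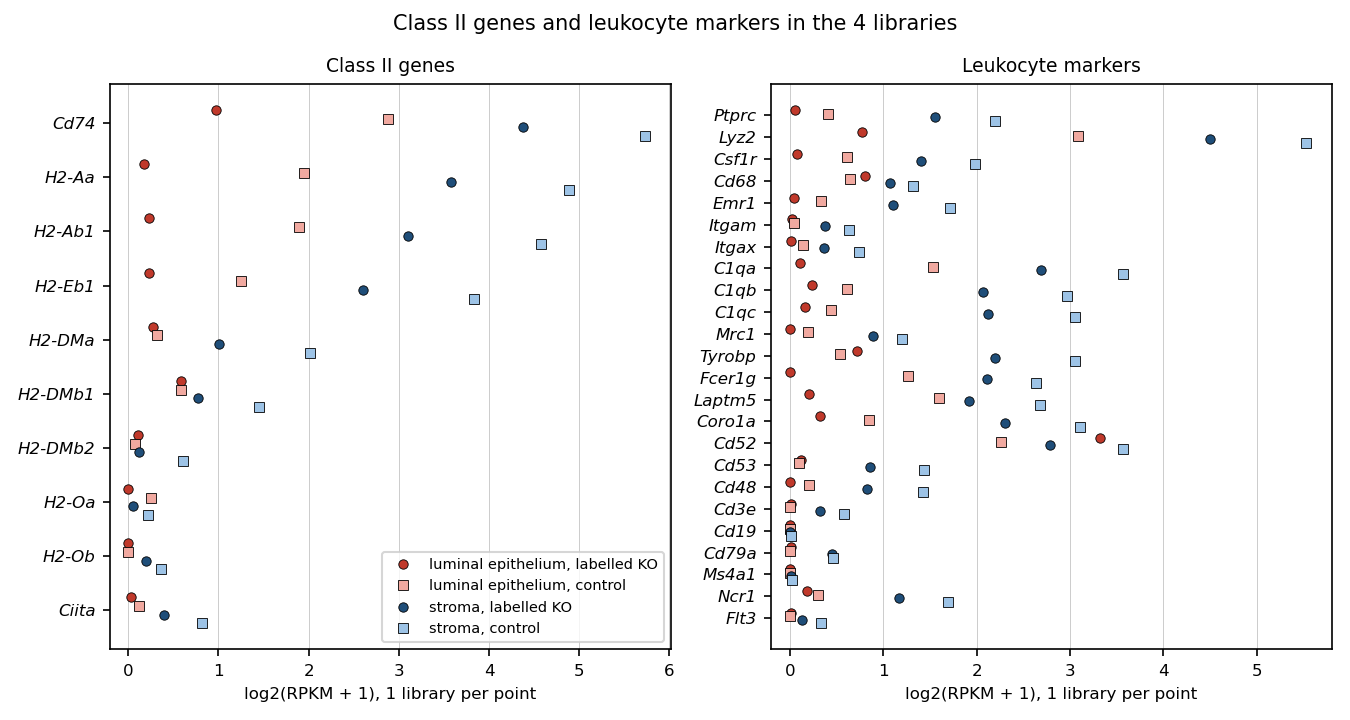
Levels of class II genes and of the 24 leukocyte markers as log2(RPKM + 1), 1 point per library, with epithelium in red, stroma in blue, labelled knockout as dark circles and control as pale squares. For Cd74, H2-Aa, H2-Ab1 and H2-Eb1, as for Lyz2 and Laptm5, control stroma lies furthest right and epithelium labelled knockout furthest left. Of the 24 markers, 7, Cd52 among them, lie further right in epithelium labelled knockout than in control epithelium, most of them on 0 or 1 estimated reads in control.

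Counts over the groups are given beside those of all genes. A gene was kept when its mean over the pair was at least 1 RPKM, and counted as lower or higher when log2((labelled knockout + 1)/(control + 1)) was at least 1 in size. In epithelium 154 of 7736 kept genes were at least 2-fold lower, 1.99%, and 389 at least 2-fold higher, 5.03%, with a median of 0.10. Scaling to sums without the 50 highest genes moved that median by -0.19 and gave 232 lower and 312 higher, so that higher genes made up 57.4% in place of 71.6% of them. In stroma 123 of 7723, 1.59%, were at least 2-fold lower and 112, 1.45%, at least 2-fold higher, with a median of 0.07. Among gene models that are neither small RNA nor unnamed, 1.78% in epithelium and 0.554% in stroma were at least 2-fold lower.

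Of the 28 class I chains, 10 were kept in epithelium and 9 in stroma, with H2-K1, H2-D1, H2-Q4, H2-Q6, H2-Q8 and H2-Q9, 6 in all, at least 2-fold lower in each compartment and none at least 2-fold higher. The median log2 differences were -1.61 and -1.32. Of the 12 class I processing genes, 10 were kept in epithelium and 11 in stroma, with 4 at least 2-fold lower in each (B2m, Tap1, Psmb8 and Psmb9) and medians of -0.84 and -0.74. Of the 12 class II genes, 3 were kept in epithelium (Cd74, H2-Aa and H2-Ab1), all at least 2-fold lower, and 6 in stroma, 5 of them at least 2-fold lower, with medians of -1.77 and -1.27. A low gene passes this filter through the library in which it is higher, so these medians describe the members kept and are no support for a direction. With no minimum, over all members, the medians were -0.13, -0.84 and -0.06 in epithelium and -0.05, -0.69 and -0.58 in stroma for class I chains, class I processing and class II genes. Those of class I chains and class II genes include members listed at 0 throughout, while no class I processing gene was listed at 0 throughout.

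Over all 52 members, 36 were lower in labelled knockout, 5 higher and 11 level at 0 in epithelium, and 39, 4 and 9 in stroma. Of the 29 members that reached 1 RPKM in some library, a choice that favours members high in 1 library, 27 were lower in epithelium labelled knockout, the exceptions being H2-Q2 and H2-DMb1, and 29 of 29 were lower in stroma labelled knockout. Over all 23235 genes, 6433 lay below 0 and 9931 above in epithelium, and 7884 below and 9748 above in stroma. Limits of the ratio were available for 26 of the 29 in epithelium and lay below 1 for 21, and for 27 in stroma, where they lay below 1 for 26. Those that hold 1 were H2-Q2, Psmb10, Tapbpl, H2-DMa and H2-DMb1 in epithelium and H2-T24 in stroma.

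**Figure D4:**
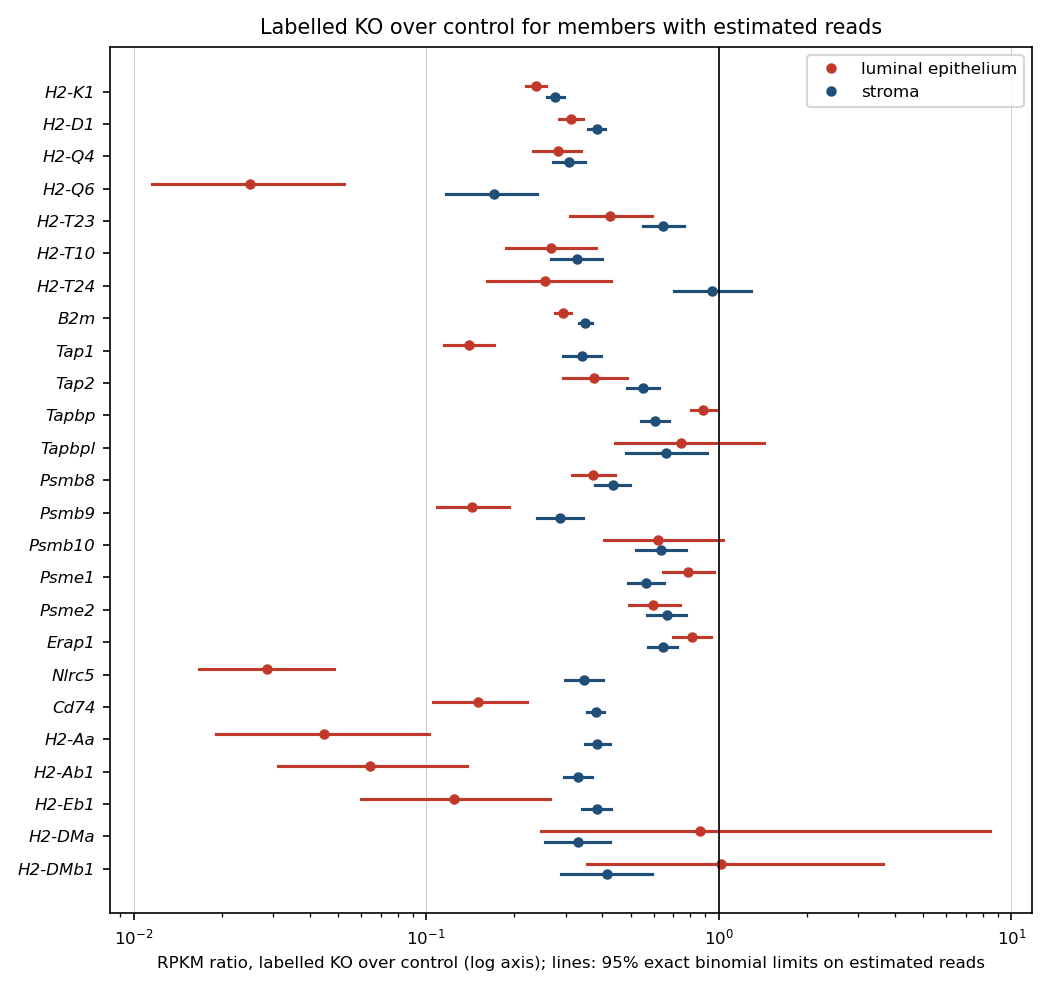
Ratio of RPKM, labelled knockout over control, on a log axis for 25 members with estimated reads in both compartments; red points are epithelium, blue points stroma, and lines are 95% exact binomial limits that cover counting error only. Points left of the vertical line at 1 are lower in labelled knockout. H2-Q6, Nlrc5, H2-Aa and H2-Ab1 lie furthest left in epithelium, while H2-DMb1, Tapbp, H2-DMa, Erap1 and Psme1 lie near 1 there. The epithelial limits of H2-DMb1 and H2-DMa are wide. H2-Q2, with a ratio of 1.85 in epithelium, is not drawn, nor are H2-Q8, H2-Q9 and H2-T9, because each lacks a lower limit above 0 in at least 1 compartment.

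The differences were not limited to chromosome 17, which carries the H2 complex. Of the 9 members elsewhere, 6 were kept in epithelium and 7 in stroma, all below 0, with B2m and Cd74 at least 2-fold lower in both compartments. Between the outermost members on chromosome 17 (chr17:34056423-37620474, mm9) the tables hold 151 genes that are no members, a comparison set chosen after the data were seen. Of these 60 were kept in epithelium and 54 in stroma, with 1 at least 2-fold lower in each, 4 and 1 at least 2-fold higher, and medians of 0.16 and 0.03. The members on chromosome 17 had 11 of 17 kept at least 2-fold lower in epithelium and 13 of 19 in stroma. Of all kept genes, 1.99% in epithelium and 1.59% in stroma were at least 2-fold lower. A low member passes this filter through the library in which it is higher. With no minimum, medians in epithelium and stroma were -0.16 and -0.17 for the 43 members on chromosome 17. For the 9 elsewhere they were -0.49 and -0.54.

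Regulators of the pathway divided. Stat2, a transcription factor of type I interferon signalling, was at 1.95 in labelled knockout against 6.23 RPKM in control epithelium and at 0.890 in labelled knockout against 2.02 RPKM in control stroma. Irf1, which binds class I promoters, was at 1.67 in labelled knockout against 4.68 RPKM in control epithelium (limits of the ratio 0.264 and 0.477) and at 3.35 in labelled knockout against 5.16 RPKM in control stroma (0.563 and 0.746). Irf2 was at 1.49 in labelled knockout against 1.99 RPKM in control epithelium and at 0.850 in labelled knockout against 1.04 RPKM in control stroma, with limits that hold 1 in both compartments. The receptor chains of interferon gamma were at 1.45 in labelled knockout against 1.24 RPKM in control (Ifngr1) and 5.57 in labelled knockout against 9.37 RPKM in control (Ifngr2) in epithelium, and at 1.78 in labelled knockout against 2.58 RPKM in control and 1.70 in labelled knockout against 1.98 RPKM in control stroma. Of RFX, the factor that binds the X box of class II and class I promoters, Rfx5 was at 1.58 in labelled knockout against 1.46 RPKM in control epithelium and at 1.68 in labelled knockout against 1.16 RPKM in control stroma. Rfxank was at 0.931 in labelled knockout against 0.346 RPKM in control epithelium and at 0.606 in labelled knockout against 0.584 RPKM in control stroma. Rfxap was at 0.563 in labelled knockout against 0.248 RPKM in control epithelium and at 0.470 in labelled knockout against 0.427 RPKM in control stroma. Its epithelial ratio had limits of 0.781 and 11.6, which hold 1, on about 3 estimated reads in control. Of the 22 genes on the regulator list, 17 were kept in epithelium and 18 in stroma, with medians of 0.07 and -0.14.

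Other interferon-responsive genes were low alongside the members. Of 22 on the list, 16 were kept in epithelium with 14 at least 2-fold lower and a median of -2.14, and 10 in stroma with 5 at least 2-fold lower and a median of -0.86, where 1.99% and 1.59% of all kept genes were at least 2-fold lower. Over all 22, kept or not, the medians were -1.43 in epithelium and -0.36 in stroma. In stroma the largest differences were those of Iigp1, Irgm1 and Gbp3, guanosine triphosphatases induced by interferon gamma, at 1.04 in labelled knockout against 9.83 RPKM in control, 1.75 in labelled knockout against 5.94 RPKM in control and 1.69 in labelled knockout against 5.35 RPKM in control. In epithelium they were those of Ifit1 and Isg15, antiviral effectors, and Irf7, a transcription factor of the type I response, at 0.344 in labelled knockout against 13.7 RPKM in control, 0.592 in labelled knockout against 11.7 RPKM in control and 1.63 in labelled knockout against 16.7 RPKM in control. Whether the compartments differ in this was not tested.

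The general machinery that class I loading borrows did not follow. All 7 chaperone and translocon genes were kept and above 0 in epithelium, with Hspa5 at 50.9 in labelled knockout against 15.5 RPKM in control and Calr, which encodes calreticulin of the peptide loading complex, at 59.8 in labelled knockout against 33.4 RPKM in control, and medians were 0.60 in epithelium and 0.15 in stroma. The standard proteasome list of 16 genes holds the activator genes Psme3 and Psme4 beside those of the core subunits. None of the 16 reached 2-fold in either compartment, with medians of 0.11 and 0.07. The largest differences in epithelium were those of Psmb2 at 24.6 in labelled knockout against 12.4 RPKM in control and Psmb3 at 18.4 in labelled knockout against 11.6 RPKM in control. Among endosomal enzymes, Ctss, the cathepsin that cleaves the invariant chain, was at 0.153 in labelled knockout against 3.97 RPKM in control epithelium and at 3.35 in labelled knockout against 9.86 RPKM in control stroma, whereas Ctsl was at 14.7 in labelled knockout against 2.89 RPKM in control epithelium. Ctsh, a further cathepsin, was at 2.27 in labelled knockout against 4.6 RPKM in control epithelium and at 2.34 in labelled knockout against 3.97 RPKM in control stroma, and the asparaginyl protease Lgmn at 3.59 in labelled knockout against 7.11 RPKM in control stroma. Of the 7 endosomal genes, 1 was at least 2-fold lower in each compartment, Ctss, and Ctsl was at least 2-fold higher in epithelium. Class I-like genes outside H2 were not kept in epithelium, and in stroma the 4 kept were within 2-fold on the log2(RPKM + 1) scale, with the antigen-presenting Cd1d1 at 0.808 in labelled knockout against 1.63 RPKM in control and Fcgrt, the neonatal Fc receptor, at 4.48 in labelled knockout against 4.25 RPKM in control.

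**Figure D5:**
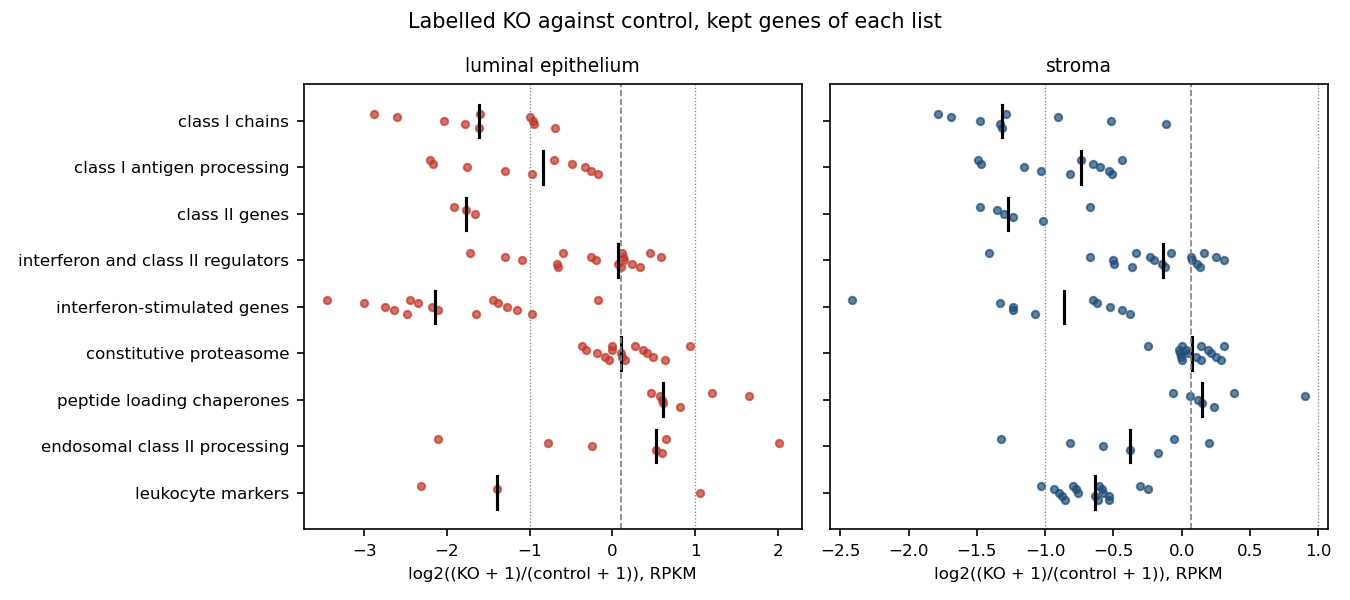
Log2 difference, labelled knockout minus control, of each kept gene of the 3 groups of members and of 6 accompanying lists, in epithelium (left) and stroma (right); black bars are medians of the list, the dashed line the median of all kept genes (0.10 and 0.07) and dotted lines 2-fold. Members and interferon-stimulated genes lie left of the dashed line, and the genes of the standard proteasome list lie around it.

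Across compartments, kept class II genes were at lower levels in epithelium, and kept class I genes lay on both sides, in values set across tables that were normalized separately. In the labelled knockout libraries 2 of 5 kept chains and 4 of 10 kept processing genes were lower in epithelium than in stroma, and in the controls 2 of 10 and 3 of 11. Low members could stand further apart: H2-Q6 was at 0.150 RPKM in epithelium against 0.841 RPKM in stroma, and Nlrc5 at 0.0353 RPKM in epithelium against 0.670 RPKM in stroma, in the labelled knockout libraries. Luminal epithelium over stroma, the ratio of B2m was 1.75 in the labelled knockout libraries and 2.08 in the controls, and that of Tapbp 5.95 and 4.08. Of the members kept, 4 class II genes of 4 were at least 2-fold lower in epithelium than in stroma for the labelled knockout libraries and 5 of 6 for the controls, where 10.7% and 12.1% of all kept genes were. Of class I processing genes, 3 of 10 and 3 of 11 were at least 2-fold higher in epithelium, against 20.7% and 19.6% of all kept genes. No class I chain that was kept, 5 for labelled knockout and 10 for control, was 2-fold apart in either direction.

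In the authors' deposited table for epithelium, 4 of the 52 members were marked significant, against 94 of all 23235 genes. All 4 were lower: H2-Q6 (q-value 5.51e-04), Nlrc5 (6.24e-04), H2-Aa (0.00925) and H2-Ab1 (0.0287). In the authors' deposited table for stroma none of the 52 was, against 5 of all 23235 genes. The q-values of H2-K1 and B2m were 0.507 and 0.844 in stroma, against 0.488 and 0.809 in epithelium. Such a test compares a pair of libraries and not the genotypes.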

How the data were processed

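RNA of 4 laser-captured samples was sequenced from stranded total RNA libraries made after ribosomal RNA depletion, per the labels' protocols. The deposited values are RPKM, 1 column per library in 2 tables, computed by the authors per the file headers. The log2 fold changes, p-values and q-values are the authors' deposited comparison. The submitters' processing notes name build mm9 and, without settings, Cufflinks 2.0.2, TopHat2 2.0.5, TopHat and CASAVA 1.8.2. Whether counting used strand is not given in the sources used here. All value columns belonged to a mapped library or to that comparison.

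Differences were taken within a compartment with a pseudocount of 1 RPKM, which understates those of low genes. A gene was kept if its pair averaged 1 RPKM or more. Members reaching 1 RPKM in any library were named, with 9 regulators (1 is not reported here) and, from each accompanying list, some of the up to 3 genes with the largest difference. The members and lists were chosen with earlier results of these data known. Depth was estimated from the step between low RPKM values, using the transcript length in GENCODE vM21 less 200 bases (49 members had one). Between 57.8% and 59.9% of low values lay within 0.2 of a whole read, a weak fit, so depths and limits are approximate. Ratio limits are 95% exact binomial (Clopper-Pearson) and cover counting error only, and amplified reads are not independent molecules. Locus starts were raised by 1, since 2813 of 20768 loci had the length of the annotated gene with starts counted from 0, against 458 from 1. Alternatives changed the pseudocount, expression minimum, scaling and gene set, and 1, chosen after seeing the data, left out members sharing sequence. Steps were run in matplotlib 3.10.9, scipy 1.17.1, pandas 2.3.3, numpy 2.4.6 and Python 3.11.15, and the depth estimate, limits and counts were tested on simulated data.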

Additional observations from a re-analysis of the deposited data

How the results depend on the processing

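No paired analysis was possible because each group has 1 library, and for the same reason no library could be left out. In epithelium, class I chains at least 2-fold lower numbered 10 with a pseudocount of 0.1 RPKM, 3 with a mean of at least 5 RPKM and 1 (H2-K1) without members sharing over 10% of their windows with another gene or with no share known, against 6. Medians moved to -0.13 for class I chains and -0.062 for class II genes with no minimum of expression, to -3.36 for class II genes with the smaller pseudocount, and to -1.14 for class I processing genes without members sharing sequence. In stroma, class I chains at least 2-fold lower numbered 3 with a mean of at least 5 RPKM and 1 without members sharing sequence, against 6. Medians there moved to -1.68 for class I chains with the smaller pseudocount, to -0.054 and -0.58 for class I chains and class II genes with no minimum, and to -1.78 for class I chains without members sharing sequence. Fewer genes entered the counts with the higher minimum and without members sharing sequence, and those listed at 0 entered with no minimum. No median changed sign under these alternatives, and no named member became at least 2-fold higher with the smaller pseudocount or either rescaling. Of the 29 named members, both rescalings left 28 lower in epithelium (all but H2-Q2) and 29 in stroma. Depth limits the epithelial values of H2-Aa, H2-Ab1 and H2-Eb1, which rest on 11 to 23 estimated reads in labelled knockout and 13 to 17 in control, and of H2-Q2, which rests on 5 in control. It also limits those of H2-DMa and H2-DMb1, which rest on 2 and 4 in control. Named members at least 2-fold lower, 15 of 29 in each compartment, numbered 20 and 18 with the smaller pseudocount. The 29 were picked for reaching 1 RPKM in some library, which favours members high in 1 library. The share of all kept genes at least 2-fold lower moved as well. In epithelium it was 1.99% as deposited, 3.61% with the smaller pseudocount and 2.73% with a mean of at least 5 RPKM.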

Other observations

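The tables hold 2 rows that join H2 symbols by a comma and were left out of every count. The row for H2-Q7 and H2-Q9 was at 0.212 RPKM in epithelium labelled knockout against 2.85 RPKM in control epithelium, and at 0.483 RPKM in stroma labelled knockout against 1.70 RPKM in control stroma. The row for H2-T22 and H2-T9 was at 0.396 in labelled knockout against 5.73 RPKM in control epithelium and at 1.76 in labelled knockout against 5.69 RPKM in control stroma. Both rows were lower in the labelled knockout library of each compartment.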
